A study of Homo sapiens with 6 samples.

Results

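The genes described here handle zinc: the metallothioneins, the zinc-sensing transcription factor MTF1 and the SLC30A and SLC39A transporter families. They were taken from the deposited table by symbol, as every row named SLC30A or SLC39A with a number, MT1 with letters, MT2A or MTF1. This gave 34 of 20289 genes, of which 9 were metallothioneins, 10 belonged to SLC30A and 14 to SLC39A, and MTF1 was the remaining gene. RNA was sequenced from 6 libraries of transfected cells, all labelled as T24, an established human bladder cancer line grown in RPMI medium with fetal bovine serum. Cells of 3 libraries received Vector plasmids, and those of the other 3 a pcDNA3.1 plasmid for overexpression of LINC00665, a long non-coding RNA, so both groups went through lipofection. The labels speak of 3 independent experiments in this 1 line. The series was made to look for expression changes behind a role of LINC00665 in lymph node metastasis of bladder cancer.

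Zinc enters the cytosol from outside or from organelles through the SLC39A (ZIP) proteins and leaves it, to the outside or into organelles, through most SLC30A (ZnT) proteins. Metallothioneins are small cysteine-rich proteins that bind zinc and copper in the cytosol. MTF1 senses raised zinc through its zinc fingers and then switches on metallothionein genes and the exporter gene SLC30A1, through short promoter sequences called metal response elements. Metallothioneins are also known to respond to glucocorticoids, other metals and oxidative stress.

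The libraries held 17289788 to 22725687 expected counts each. LINC00665 itself had 0 rows in the table, so its level was not analysed here. Of the 6 libraries, 3 went against the labelled line when checked for mix-ups, and the labels cannot be compared without them. Groups are therefore called by their labels, and line and plasmid cannot be told apart. Of 17 urothelial markers, 15 averaged at least 1 CPM (the count scaled to a common library total) under the LINC00665 label and 6 under the Vector label, where UPK3A and GRHL3 had 0 counts. Of 17 kidney tubule markers, 2 did so under the LINC00665 label and 6 under the Vector label, where CDH6, SLC34A1, AQP2, UMOD and EMX2 were at 0. The summed CPM of the urothelial list was 508 to 1984 under Vector and 8858 to 10184 under LINC00665, and that of the kidney list 409 to 572 and 25.1 to 29.2. The fibroblast list summed to 2.52 to 4.89 and 232 to 265 CPM, the endothelial list to 0.3 to 1.21 and 11 to 13.6 CPM, and the leukocyte list to 11.4 to 18.3 and 114 to 174 CPM, in the same order. All 4 leukocyte markers that edgeR tested were called higher, namely CD74 (0.179 and 115 CPM), CSF1R (0 counts and 1.04 CPM), CD14 (0.298 and 4.89 CPM) and CD68 (14.5 and 23 CPM), while PTPRC had 0 counts under LINC00665 and LYZ and MS4A1 had 0 under both labels. Any difference between labels below goes along with these lists, and their part in it was not tested. In such bulk libraries fewer cells of a type and less RNA per cell cannot be told apart. Libraries labelled Vector differed more among themselves: the median coefficient of variation of a gene's CPM was 19.0% over 11737 genes under Vector and 10.6% over 12804 genes under LINC00665. For the zinc genes it was 23.9% and 12.9%. Vector 3 stood apart from Vector 1 and 2 for several of these genes.

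Metallothioneins are near copies of each other, which bears on how reads can be assigned, so the coding sequences of the 4 that were expressed are shown. They come from GENCODE v29 transcripts (GRCh38, chromosome 16, plus strand), and capitals mark bases that differ from MT2A.
MT2A: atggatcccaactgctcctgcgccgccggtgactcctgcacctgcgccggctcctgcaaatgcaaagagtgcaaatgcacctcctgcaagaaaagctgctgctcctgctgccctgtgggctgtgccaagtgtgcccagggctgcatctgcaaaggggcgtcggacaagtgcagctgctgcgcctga
MT1E: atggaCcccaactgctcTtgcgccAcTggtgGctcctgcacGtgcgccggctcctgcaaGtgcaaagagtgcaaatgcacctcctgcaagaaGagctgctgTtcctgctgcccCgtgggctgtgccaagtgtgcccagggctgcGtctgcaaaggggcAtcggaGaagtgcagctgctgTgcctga
MT1X: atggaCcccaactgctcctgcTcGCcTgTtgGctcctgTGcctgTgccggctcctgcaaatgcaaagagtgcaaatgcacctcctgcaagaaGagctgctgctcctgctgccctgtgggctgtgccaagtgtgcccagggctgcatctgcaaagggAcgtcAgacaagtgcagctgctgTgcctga
MT1F: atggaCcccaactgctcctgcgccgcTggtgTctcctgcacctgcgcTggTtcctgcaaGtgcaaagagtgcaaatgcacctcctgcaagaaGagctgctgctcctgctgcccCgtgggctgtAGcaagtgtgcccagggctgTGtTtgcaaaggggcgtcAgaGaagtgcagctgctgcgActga
Each holds 186 bases and 61 codons before the stop, 20 of them cysteine codons. MT1E and MT1X each differ from MT2A at 14 bases and MT1F at 16, and identity among the 4 runs from 88.7% to 92.5%. Over the whole transcripts, 5.34% of the 50-base windows of MT1E, 4.88% of those of MT2A, 3.59% of those of MT1F and 45.1% of those of MT1X also occur in a transcript of another gene. MT1X is therefore the least certain of the 4. The MT2A and MT1F transcripts searched were 786 and 690 bases long. Counts per FPKM, scaled to the library total, implied about 401 and 425 bases. The shares over shorter transcripts were not computed. The deposited metallothionein counts were whole numbers in every library.

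Metallothionein mRNA was lower in sum under the LINC00665 label, with the largest fold change in MT1E and the largest difference in CPM in MT2A. MT1E stood at 178, 135 and 361 CPM in Vector 1 to 3 and at 3.04, 3.13 and 2.93 CPM in LINC00665 1 to 3. Every Vector library lay above every LINC00665 library, with means of 225 ± 120 and 3.03 ± 0.102 CPM (SD, n = 3). The log2 fold change was -6.04 (SE 0.42, edgeR quasi-likelihood test, adjusted p = 6.7e-06 by Benjamini-Hochberg over 13552 genes). MT2A, usually the most abundant human metallothionein, read 1193, 711 and 257 CPM under Vector and 220, 164 and 294 CPM under LINC00665. Vector 1 and 2 were far above the rest, while Vector 3 lay between LINC00665 1 and 3, so the groups overlapped. MT2A fell by 1.52 on the log2 scale (SE 0.48, edgeR adjusted p = 0.023). This call was lost without Vector 1 (adjusted p = 0.095, log2 fold change -0.96), without LINC00665 1 (0.062, -1.50) and without LINC00665 2 (0.095, -1.37).

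MT1F, a minor isoform here, moved the other way. It stood at 1.15, 1.85 and 1.75 CPM under Vector and at 3.04, 4.44 and 4.6 CPM under LINC00665, with no overlap. It rose by 1.5 on the log2 scale (SE 0.31, edgeR adjusted p = 0.0031), on 87 and 249 counts in all. MT1X, another broadly expressed isoform, read 15.0, 18.7 and 2.52 CPM under Vector and 9.94, 11.5 and 11.6 CPM under LINC00665. Vector 3 alone lay below the LINC00665 libraries and Vector 1 and 2 above them. The log2 fold change of MT1X was 0.03 (SE 0.57, edgeR adjusted p = 0.97), and without Vector 3 it was -0.45 (SE 0.19, adjusted p = 0.064).

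The remaining 5 metallothioneins were at or near 0. MT1G and MT1H had 0 counts in all 6 libraries, which allows a level of up to 0.054 CPM under Vector and 0.0479 CPM under LINC00665 (3 counts over a group, for counting error only). MT1A had 0 counts under Vector and 11 under LINC00665 (7, 2 and 2 by library). Scaled to group totals, the 11 counts lie 3.26-fold above 3 counts over the Vector group. This takes the 11 counts as exact. MT1M had 0 and 6 counts, all 6 in LINC00665 3, and MT1B had 0 and 1. None of these 5 passed edgeR's filter on low counts. Without that filter edgeR called MT1A higher (adjusted p = 0.032), and DESeq2 did not (adjusted p = 0.07). In their order along chromosome 16 the genes run MT2A, MT1E, MT1M, MT1A, MT1B, MT1F, MT1G, MT1H and MT1X, over 74.2 kb between the first and the last start. The 2 metallothioneins that were lower, MT2A (positions 56608199 to 56609497) and MT1E (56625475 to 56627112), are the first 2 of that order in GRCh38. MT1F (56657694 to 56660698) and MT1X (56682424 to 56684196) lie further along, separated from them by genes at or near 0 counts.

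**Figure D1:**
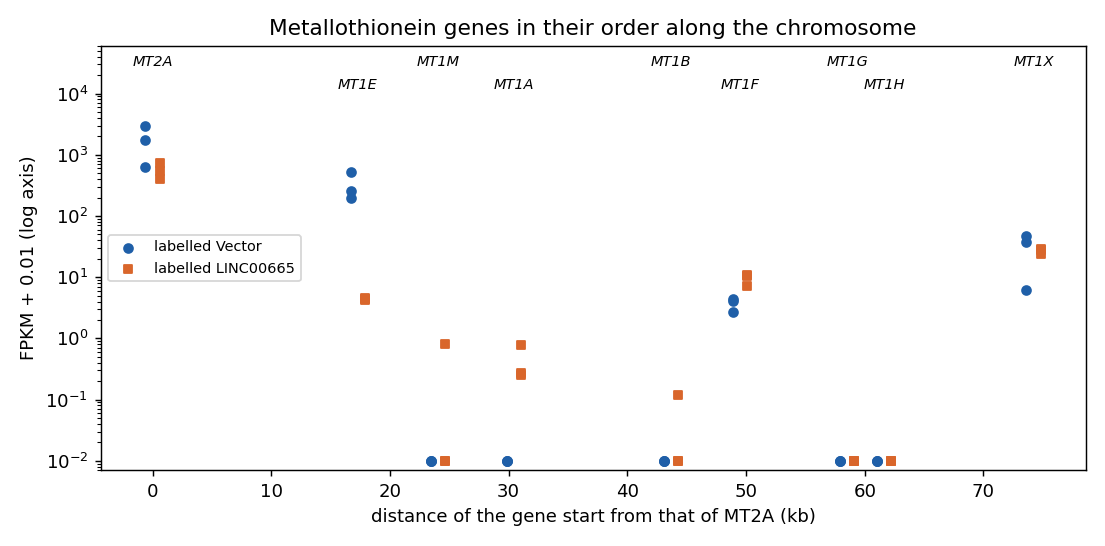
FPKM plus 0.01 (log axis) of the 9 metallothionein genes in each library, placed by the distance of their starts from that of MT2A in kb; circles are libraries labelled Vector and squares those labelled LINC00665. MT2A, MT1E, MT1F and MT1X are expressed, MT1E is far higher under the Vector label, and MT1G and MT1H sit at the floor of the plot in every library.

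All 9 metallothionein rows were also summed, so that the split of reads among these rows does not enter; windows shared with copies outside them, such as MT1P3 and MT2P1, remain uncertain. The sum was 1387, 866 and 623 CPM in Vector 1 to 3 and 236, 183 and 313 CPM in LINC00665 1 to 3, without overlap. The means were 959 ± 390 and 244 ± 65.5 CPM (SD, n = 3). As 1 row of the whole table the sum fell by 1.81 on the log2 scale (SE 0.30, edgeR adjusted p = 0.00099), and leaving out 1 library gave -2.05 to -1.47 with adjusted p from 0.00016 to 0.0086. A two-sided exact permutation test of the summed CPM gave p = 0.1, the smallest that 3 against 3 libraries allow.

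The make-up of the metallothionein pool differed within the Vector label as well as between labels. MT1E made up 12.8% of metallothionein counts in Vector 1 (95% Wilson interval 12.4 to 13.2%), 15.6% in Vector 2 (15.0 to 16.2%) and 58.0% in Vector 3 (57.1 to 58.9%). Its share was 1.28% (1.02 to 1.62%), 1.71% (1.35 to 2.18%) and 0.935% (0.721 to 1.21%) in LINC00665 1 to 3. Vector 3 was thus the library with the most MT1E and, among the Vector libraries, the one with the least MT2A and MT1X. These intervals cover counting error only, and the spread among the Vector libraries is far wider than they are. MT2A made up 89.5 to 93.8% of the counts under LINC00665 and 41.3 to 86.0% under Vector. Per length, on the authors' FPKM scale, MT2A averaged 1796 ± 1168 under Vector and 563 ± 162 under LINC00665, against 330 ± 177 and 4.4 ± 0.225 for MT1E. In the order of FPKM under LINC00665, MT2A was followed by MT1X (26.9 ± 2.24), MT1F (9.48 ± 2.03) and MT1E, whose ranges there did not overlap. Under Vector the order was MT2A, MT1E, MT1X (29.8 ± 21.0) and MT1F (3.73 ± 0.896).

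**Figure D2:**
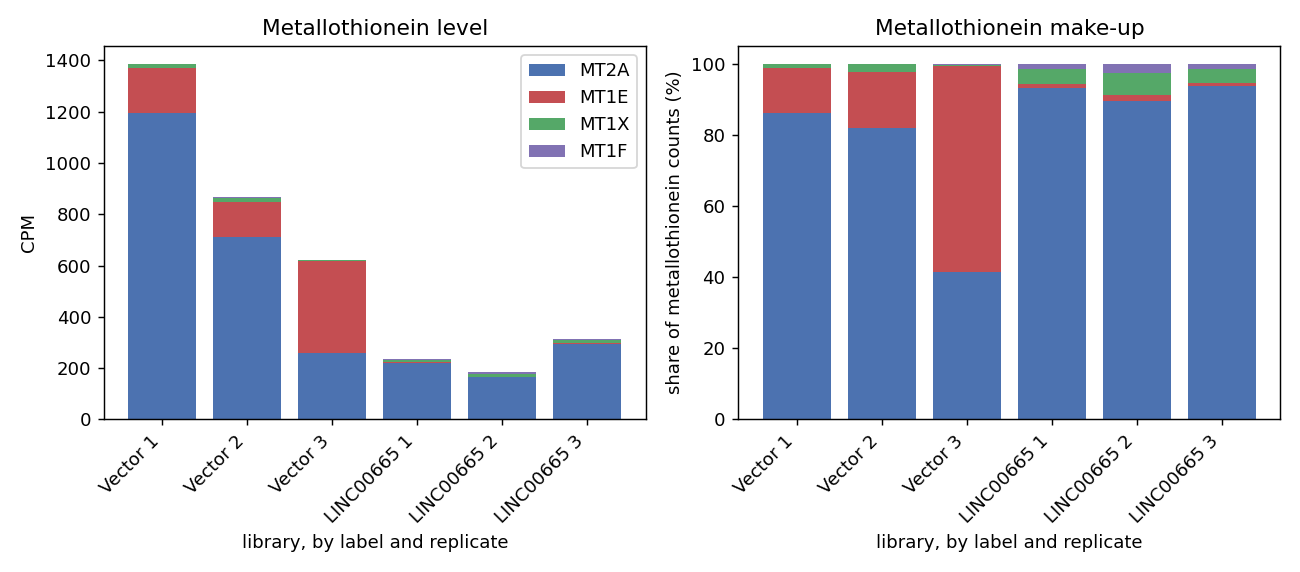
Stacked bars of MT2A, MT1E, MT1X and MT1F in each library, as CPM (left) and as a percent of all metallothionein counts (right). The total is 623 to 1387 CPM in the libraries labelled Vector and 183 to 313 CPM in those labelled LINC00665, and MT1E takes 58.0% of the counts in Vector 3.

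MTF1, the zinc sensor that drives metallothionein transcription, read 41.1, 51.4 and 81.7 CPM under Vector and 33.0, 24.2 and 31.3 CPM under LINC00665. The groups did not overlap, and Vector 3 was the highest of the 6. MTF1 fell by 0.82 on the log2 scale (SE 0.26, edgeR adjusted p = 0.023). The call was lost without LINC00665 2 (adjusted p = 0.084) and without LINC00665 3 (0.055), and without Vector 3 the log2 fold change was -0.49 (adjusted p = 0.041).

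The promoters of 3 genes that MTF1 is known to act on are shown, because their transcripts did not move together: MT2A fell, SLC30A1 rose and MT1X showed no call. The sequences are the 250 bases before the RefSeq start in GRCh38.p14, written 5′ to 3′ on the gene's strand. Capitals mark the core of the metal response element, searched as TGCACNC and TGCGCNC on both strands with overlaps allowed.
MT2A, chr16:56608334-56608583, plus strand: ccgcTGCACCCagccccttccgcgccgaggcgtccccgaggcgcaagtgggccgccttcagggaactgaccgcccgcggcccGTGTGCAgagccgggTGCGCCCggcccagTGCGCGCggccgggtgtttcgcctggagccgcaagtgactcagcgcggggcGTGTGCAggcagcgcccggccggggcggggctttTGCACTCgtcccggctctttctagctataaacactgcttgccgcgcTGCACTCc
MT1X, chr16:56682220-56682469, plus strand: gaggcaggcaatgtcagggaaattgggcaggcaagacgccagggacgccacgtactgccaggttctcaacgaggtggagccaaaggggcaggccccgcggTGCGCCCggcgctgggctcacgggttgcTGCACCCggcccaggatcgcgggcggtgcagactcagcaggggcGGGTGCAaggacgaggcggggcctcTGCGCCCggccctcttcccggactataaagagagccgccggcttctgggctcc
SLC30A1, chr1:211579162-211579411, minus strand: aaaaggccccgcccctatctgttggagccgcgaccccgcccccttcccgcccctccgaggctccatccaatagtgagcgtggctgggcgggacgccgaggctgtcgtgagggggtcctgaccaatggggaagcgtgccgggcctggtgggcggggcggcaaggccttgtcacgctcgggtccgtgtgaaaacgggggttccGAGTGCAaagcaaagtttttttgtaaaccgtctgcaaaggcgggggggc
The MT2A window holds 7 matches, the MT1X window 4 and the SLC30A1 window 1. RefSeq and GENCODE v29 starts differ for these genes, so the windows are not placed alike. By GENCODE v29 the MT2A window lies inside the gene (56608199 to 56609497), and the MT1X window runs into its gene (from 56682424). The SLC30A1 window lies upstream of its gene without touching it (211571568 to 211578742). Of all 35116 RefSeq promoter windows of that length, 24.8% hold at least 1 match and 0.37% at least 4. The window of MT1H holds 8 matches and that of MT1B 3, and these genes had 0 and 1 counts. Windows were found for 26 of the 34 genes, and 14 of these genes had a match in at least 1 window. Counted by window, as in the background, 15 of their 35 windows held a match. No window was found for MT1A, MT1E, MT1F, MT1G, MT1M, SLC30A8, SLC39A4 or SLC39A14. The called genes MT1E, MT1F and SLC39A4 were thus not searched. A match describes the letters of the window and is no measure of binding.

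Across both transporter families and the metallothioneins, 22 of the 34 genes passed the filter on low counts, and all 22 had at least 1 CPM in each of the 6 libraries. Of these 22, 5 rose, 7 fell and 10 did not pass the test. Among all 13552 genes tested, 63.5% were called, 34.2% higher and 29.3% lower, against 54.5% of the 22. The zinc genes were thus not called more often than genes at large. On deposited FPKM, limma called 4 higher and 9 lower. The groups did not overlap for 14 of the 22, and for 71.3% of all genes tested. The median log2 fold change of the 22 was -0.25, and that of all genes tested was 0.03.

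**Figure D3:**
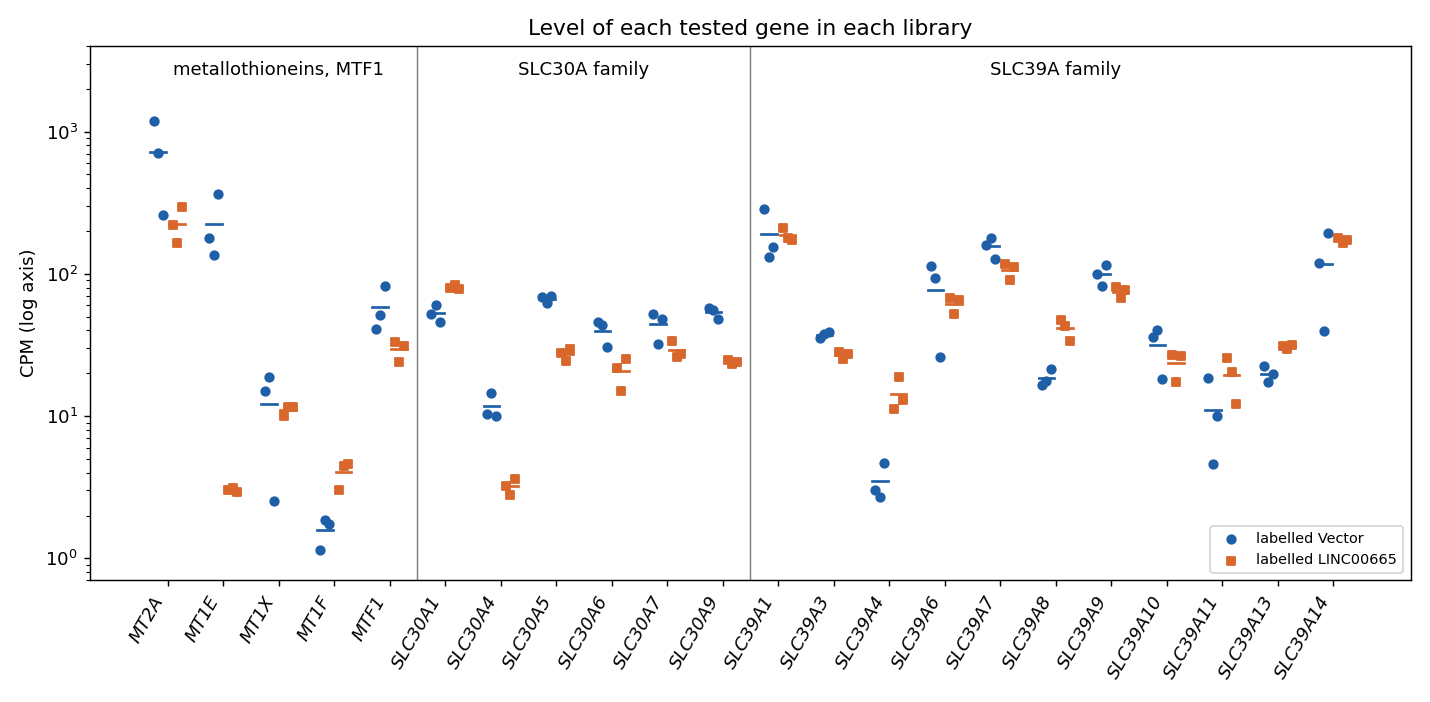
CPM (log axis) of the 22 tested genes in each library; circles are libraries labelled Vector, squares those labelled LINC00665, and short lines the group means. SLC30A4, SLC30A5, SLC30A6 and SLC30A9 lie lower and SLC30A1, SLC39A4, SLC39A8 and SLC39A13 higher in all 3 libraries labelled LINC00665.

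Most expressed SLC30A transporters were lower under the LINC00665 label, except SLC30A1. Of the 6 that edgeR tested, 4 fell, 1 rose and 1 did not pass, beside 29.3% of all genes called lower and 34.2% higher. DESeq2 called 4 lower and 2 higher of 9, SLC30A3 being the second that was higher. SLC30A1 (ZnT1), the exporter of the plasma membrane, read 52.5, 60.8 and 45.6 CPM under Vector and 80.0, 83.0 and 78.1 CPM under LINC00665, without overlap. It rose by 0.76 on the log2 scale (SE 0.16, edgeR adjusted p = 0.0029). SLC30A5 and SLC30A6, which form a heterodimer that loads zinc into the early secretory pathway, were both lower. SLC30A5 went from 66.9 ± 4.07 to 27.4 ± 2.6 CPM (SD, n = 3) and fell by 1.13 (SE 0.14, edgeR adjusted p = 0.00017). SLC30A6 read 45.6, 43.4 and 30.5 CPM under Vector and 21.7, 15.0 and 25.1 CPM under LINC00665, a fall of 0.79 (SE 0.23, adjusted p = 0.015) that was lost without Vector 1 (0.055) and without LINC00665 2 (0.051).

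SLC30A4, a transporter of endosomes and secretory vesicles, stood at 10.3, 14.6 and 10.1 CPM under Vector and at 3.21, 2.80 and 3.61 CPM under LINC00665. It fell by 1.71 on the log2 scale (SE 0.24, edgeR adjusted p = 0.00034). SLC30A9, which has been assigned to mitochondria, went from 54.1 ± 4.99 to 24 ± 0.708 CPM and fell by 1.01 (SE 0.14, adjusted p = 0.00036). SLC30A7, a Golgi transporter, read 52.0, 32.3 and 48.4 CPM under Vector and 33.9, 26.2 and 27.2 CPM under LINC00665, and the groups overlapped through Vector 2. Its log2 fold change was -0.44 (SE 0.21, edgeR adjusted p = 0.093), or -0.62 without Vector 2 (adjusted p = 0.0086).

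The order of the exporters by FPKM changed with these differences. Under Vector SLC30A5 led (24.3 ± 0.79), followed by SLC30A9 (14.8 ± 1.53), with SLC30A6 (9.32 ± 1.9) and SLC30A1 (8.99 ± 1.3) not apart beyond their spread, then SLC30A7 (5.6 ± 1.37) and SLC30A4 (1.64 ± 0.361). Under LINC00665 SLC30A1 led (13.6 ± 0.419), ahead of SLC30A5 (11.1 ± 1.54), SLC30A9 (6.61 ± 0.591), SLC30A6 (5.01 ± 1.11), SLC30A7 (3.73 ± 0.468) and SLC30A4 (0.45 ± 0.06). The summed FPKM of the 10 SLC30A rows was 66.6, 66.8 and 60.6 under Vector and 42.2, 37.4 and 42.9 under LINC00665. SLC30A8, the transporter of insulin granules, had 0 counts in every library. SLC30A2 and SLC30A10, a manganese exporter, had 0 counts under Vector and 5 and 7 under LINC00665, and SLC30A3, known from synaptic vesicles, had 5 and 32. None of these 4 passed edgeR's filter. SLC30A3 was called higher by edgeR without the filter (adjusted p = 0.013) and by DESeq2 (0.02), and SLC30A2 and SLC30A10 were called by neither.

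Among the 11 SLC39A importers tested, 3 rose, 0 fell and 8 did not pass edgeR's test at the adjusted threshold of 0.05. Thus 27.3% were called, against 63.5% of all genes tested (34.2% higher and 29.3% lower). Of the 14 rows, 3 did not pass the filter of edgeR. At an unadjusted edgeR p under 0.05, 3 were higher and 1, SLC39A3, was lower. DESeq2 also called 3 higher and 0 lower of the 11 it tested. Both SLC39A3 and SLC39A7 were called lower with total-count scaling (3 higher and 2 lower in all) and by limma on log2(FPKM + 1) (2 higher and 2 lower). SLC39A4 (ZIP4), the importer whose loss causes the zinc deficiency disease acrodermatitis enteropathica, read 3.05, 2.72 and 4.71 CPM under Vector and 11.2, 18.8 and 13.1 CPM under LINC00665. It rose by 2.21 on the log2 scale (SE 0.30, edgeR adjusted p = 0.00034), and every LINC00665 library lay above every Vector library. SLC39A8 (ZIP8), which also carries manganese and cadmium, went from 16.6, 17.5 and 21.5 CPM to 47.6, 43.3 and 33.7 CPM and rose by 1.33 (SE 0.19, adjusted p = 0.00048). SLC39A13 (ZIP13), an intracellular transporter whose loss affects connective tissue, went from 22.5, 17.4 and 19.9 CPM to 31.0, 29.7 and 31.6 CPM and rose by 0.79 (SE 0.15, adjusted p = 0.002). On the deposited FPKM values, tested with limma as log2(FPKM + 1), SLC39A13 was not called (0.35, adjusted p = 0.084).

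The fits on the 2 units differed in scaling and in the gene length the units imply. The normalisation factors (TMM) of the edgeR fit were not applied to FPKM. On counts with total-count scaling, SLC39A13 rose by 0.63 on the log2 scale (edgeR adjusted p = 0.0076). Counts per FPKM, scaled to the library total, gave SLC39A13 a mean length of 1865 bases under Vector and 2216 under LINC00665, a ratio of 1.19. For SLC39A11 the lengths were 1586 and 2319 bases, a ratio of 1.46. The other zinc genes for which this was computed had ratios from 0.901 (SLC30A5) to 1.09 (SLC39A3). The lengths behind the FPKM values were therefore not fixed for every gene. SLC39A7, which limma called lower on FPKM, had a ratio of 1.00. The parts of length and scaling in the results were not tested.

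Several importers varied more among the Vector libraries than between labels. SLC39A14 (ZIP14), which carries zinc, manganese and iron, read 118, 39.4 and 193 CPM under Vector and 180, 166 and 173 CPM under LINC00665. Vector 2 was the lowest and Vector 3 the highest of the 6, and the log2 fold change of 0.73 (SE 0.46) did not pass (edgeR adjusted p = 0.19). Its coefficient of variation among Vector libraries, 65.8%, was above that of 97.4% of genes, and among LINC00665 libraries, 4.05%, above that of 11.4%. SLC39A6 (ZIP6) read 114, 92.9 and 25.9 CPM under Vector and 67.1, 52.2 and 65.2 CPM under LINC00665, so that Vector 3 lay below and Vector 1 and 2 above the other group. SLC39A10 (ZIP10), which pairs with SLC39A6 in a heteromer, read 36.0, 40.5 and 18.1 CPM under Vector and 27.1, 17.3 and 26.5 CPM under LINC00665. For both, Vector 3 was the lowest of its label, as it was for MT1X and MT2A. Neither passed (edgeR adjusted p = 0.75 and 0.48). Without Vector 3, SLC39A6 (log2 fold change -0.59, adjusted p = 0.0098), SLC39A10 (-0.54, 0.045), SLC39A7 (-0.52, 0.017) and SLC39A14 (1.30, 0.016) passed.

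SLC39A1 (ZIP1), the importer with the highest mean FPKM, stood at 285, 132 and 154 CPM under Vector and at 209, 179 and 174 CPM under LINC00665. The groups overlapped, and the log2 fold change was 0.15 (SE 0.27, edgeR adjusted p = 0.65), or 0.55 without Vector 1 (adjusted p = 0.03). Of its 50-base windows 84.7% also lie in transcripts of AL358472.7, so its reads can be counted for either gene. SLC39A7 (ZIP7), which releases zinc from the endoplasmic reticulum, read 160, 179 and 128 CPM under Vector and 117, 90.5 and 112 CPM under LINC00665. SLC39A3 (ZIP3) read 35.2, 38.0 and 39.1 CPM and 28.1, 25.3 and 27.5 CPM. SLC39A9 (ZIP9) read 100.5, 81.9 and 116 CPM and 80.7, 67.6 and 76.7 CPM. In these 3 genes every LINC00665 library lay below every Vector library in CPM, which divides by the library total. The fit scales by TMM factors instead. There the log2 fold changes of -0.39 (SE 0.17), -0.31 (SE 0.14) and -0.24 (SE 0.16) did not pass (edgeR adjusted p = 0.081, 0.074 and 0.22). With total-count scaling, edgeR gave adjusted p = 0.024, 0.016 and 0.060 in the same order. SLC39A3 and SLC39A7 were the only 2 of the 34 genes with counts that were not whole numbers, and 26.6% of the windows of SLC39A3 are shared with AC006538.2. SLC39A11 (ZIP11) read 18.7, 4.57 and 9.98 CPM and 25.7, 20.5 and 12.2 CPM, and its log2 fold change was 0.99 (SE 0.47, edgeR adjusted p = 0.098), or 1.58 without Vector 1 (adjusted p = 0.021).

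By mean FPKM SLC39A1 stood at 92.2 ± 40.5 under Vector and 90.7 ± 9.39 under LINC00665, and SLC39A7 at 68.9 ± 11.4 and 47.1 ± 6.21. Under LINC00665 SLC39A1 was clear of SLC39A7, whereas under Vector they were not apart beyond their spread, and SLC39A7 was the higher in Vector 2 (79.3 against 63.7). Under Vector SLC39A3 (27.6 ± 2.05), SLC39A14 (25.8 ± 17), SLC39A6 (23.9 ± 13.7) and SLC39A9 (19.4 ± 3.06) followed. There SLC39A14 and SLC39A6 overlapped each other and both of the others, while SLC39A3 was clear of SLC39A9. Under LINC00665 SLC39A14 (37.6 ± 1.66) followed SLC39A7, clear of SLC39A6 (20.2 ± 2.79), SLC39A3 (18.3 ± 0.858) and SLC39A9 (16.2 ± 1.08). The summed FPKM of the 14 SLC39A rows was 353, 249 and 265 under Vector and 298.5, 262 and 271 under LINC00665, so the groups overlapped, unlike those of the SLC30A sum. SLC39A5 and SLC39A12 had 0 counts in every library, and SLC39A2 had 4 counts under Vector and 0 under LINC00665. SLC39A13 (10.7 ± 1.76 and 13.9 ± 1.11), SLC39A8 (5.9 ± 0.903 and 13.2 ± 2.31), SLC39A11 (6.82 ± 3.84 and 8.66 ± 3.47), SLC39A10 (6.03 ± 2.26 and 4.52 ± 1.05) and SLC39A4 (1.61 ± 0.535 and 6.74 ± 1.86) had lower FPKM. No test of a difference between the SLC30A and SLC39A families was made.

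**Figure D4:**
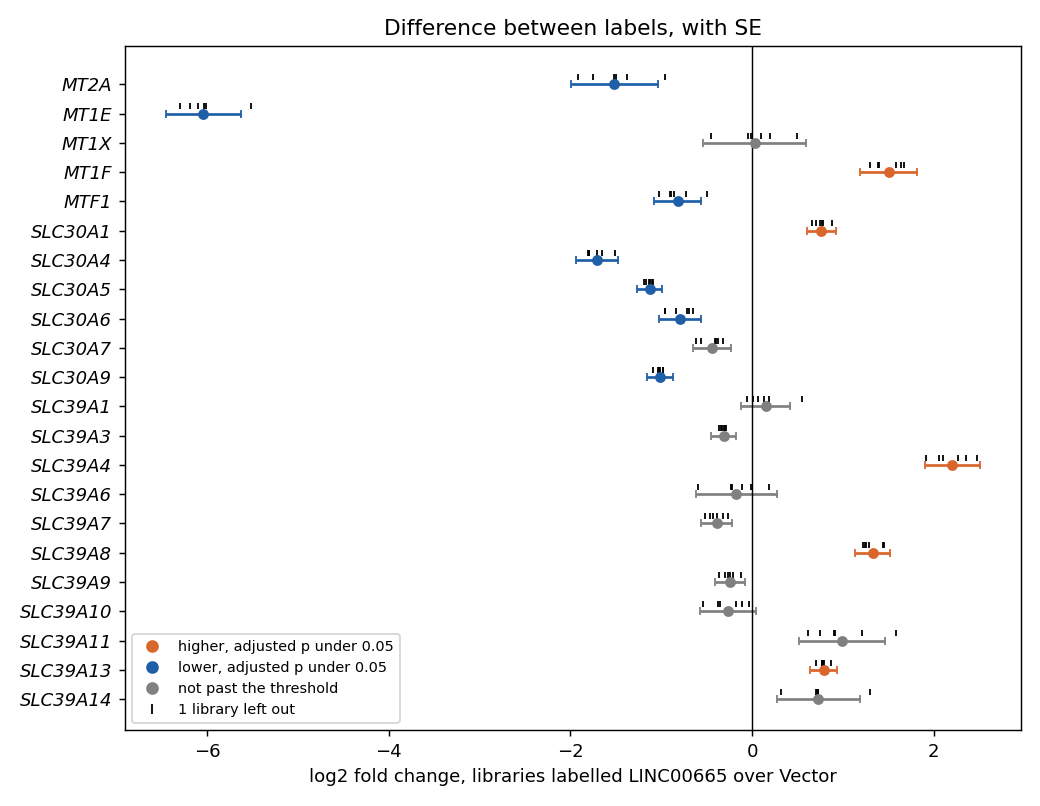
Log2 fold change (libraries labelled LINC00665 over Vector) of the 22 tested genes with its standard error; colour gives the call by edgeR at an adjusted p of 0.05, and each short vertical line is the value with 1 library left out. MT1E lies far to the left at -6.04, SLC39A4 farthest to the right at 2.21, and the lines spread most for genes that varied among the Vector libraries, such as SLC39A14 and MT1X.

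Related metal and stress genes were described from 5 lists, beside the 63.5% of all genes called. Of 19 tested genes of zinc sensing and other zinc handling, 9 rose and 3 fell. S100A9 and S100A8, the zinc-binding subunits of calprotectin, stood at 0.575 ± 0.127 and 1326 ± 132 CPM and at 0 counts and 39.3 ± 10.7 CPM under Vector and LINC00665, and TMC8, linked to SLC30A1 in keratinocytes, at 3 counts in all and 3.74 ± 0.79 CPM. The brain and epithelial metallothioneins MT3 and MT4 had 0 counts under both labels. Of 22 copper-handling genes, 4 rose and 11 fell, with a median log2 fold change of -0.42. The ferroxidase-like HEPHL1 stood at 0 counts and 93.0 ± 13.6 CPM, the metalloreductase STEAP4 at 2 counts and 13.5 ± 4.36 CPM, and its relative STEAP3 fell from 115 ± 1.28 to 30.3 ± 3.95 CPM (-1.76 on the log2 scale, SE 0.14, edgeR adjusted p = 1.7e-05).

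Of 18 iron-handling genes, 6 rose and 4 fell. The siderophore-binding LCN2 went from 4.04 ± 0.849 to 3112 ± 482 CPM, while HFE, a regulator of iron uptake, fell from 41.9 ± 2.35 to 4.51 ± 1.13 CPM and the iron-responsive RNA-binding protein IREB2 from 85.8 ± 12.7 to 16.2 ± 0.759 CPM. Of 23 NRF2 and oxidative stress genes, 5 rose and 8 fell, with a median of -0.46. NQO1, a quinone reductase, fell from 830 ± 182 to 168 ± 32.3 CPM and the peroxiredoxin PRDX1 from 874 ± 38.0 to 358 ± 14.9 CPM, while AKR1C1 went from 0.221 ± 0.16 to 17.3 ± 4.91 CPM. Of 16 glucocorticoid response genes, 11 rose and 1 fell, with a median of 1.81. PDK4 rose from 1.92 ± 0.84 to 41.3 ± 3.26 CPM, DUSP1 from 101 ± 24.1 to 683 ± 137 CPM and GADD45B from 21.2 ± 9.3 to 393 ± 113 CPM.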

How the data were processed

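The authors deposited 1 table that holds, for each gene, an expected count in every library, not normalised, per the file headers, in which 88.3 to 89.4% of values are whole (within 0.001). The same deposited table gives FPKM, a unit that corrects for length and depth and was computed by the authors, per the file headers. HISAT2 2.0.4 and hg38 are named in the submitters' processing notes, with no role; no source used here gives the counting tool, annotation or strand setting, so overlapping genes cannot be told apart with certainty. Titles gave each library its group and number. The p-values set the difference between labels against the spread among libraries of a label, and they do not tell plasmid from line.

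The genes and gene lists were chosen with earlier results of these data known. Every matching gene was accounted for, those at a mean of at least 1 CPM under either label by value, and the 3 genes with the smallest p of each related list were named; other statements on single libraries were chosen after the values were seen. Expected counts were rounded, passed through filterByExpr, normalised with TMM factors and fitted in edgeR 4.0.16 by quasi-likelihood (glmQLFit, glmQLFTest) in R 4.3.3, with Benjamini-Hochberg adjustment over 13552 genes and a threshold of 0.05. The standard error is the log2 fold change over the root of F. CPM divides by the library total. Alternatives were size factors, total counts, 2 filters, DESeq2 1.42.0, limma 3.58.1 on log2(FPKM + 1) and log2(FPKM + 0.1), the replicate block, thresholds and leaving out each library. The fit was also run on simulated counts with known changes, as many up as down and in a small part of the genes. In these data 63.5% of genes were called, so that run does not check the scaling here. Gene positions and transcripts are GENCODE v29, in which all 34 genes were found. Promoters are RefSeq's (GRCh38.p14). Figures used matplotlib 3.10.9.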

Additional observations from a re-analysis of the deposited data

How the results depend on the processing

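Each of the 22 tested genes was fitted under 14 alternatives. Of the 12 calls, 8 held under all 14: MT1E, MT1F, SLC30A1, SLC30A4, SLC30A5, SLC30A9, SLC39A4 and SLC39A8. The calls of MT2A, MTF1, SLC30A6 and SLC39A13 were lost in 10 of their fits, and 14 fits called a gene that was not called before. The count of genes that rose was 5 and went to 3 when a change of 1 or more on the log2 scale, in either direction, was also asked for, while the zinc genes that fell went from 7 to 5, all genes that rose from 4634 to 3535 and all genes that fell from 3977 to 2156. The count of zinc genes that fell was 7, was 4 at an adjusted p under 0.01, and ran from 4 to 10 when 1 library was left out, the lowest without LINC00665 2 and the highest without Vector 3. With 1 library left out, 5 to 7 genes rose; 7 of 29 rose with no filter on low counts and 6 of 27 with DESeq2. Total-count scaling moved the median of all genes by -0.16 on the log2 scale and called 10 zinc genes lower, SLC30A7, SLC39A3 and SLC39A7 in addition, and 5 higher; limma on log2(FPKM + 1) called 9 lower and 4 higher.

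Signs turned only in 3 genes that the test did not call with all 6 libraries: MT1X (-0.13 with total-count scaling, and -0.45 without Vector 3 to 0.50 without Vector 2 over the fits with 1 library left out, among them -0.046 without LINC00665 2 and -0.0095 without LINC00665 3), SLC39A1 (-0.018 with total-count scaling, and -0.053 without Vector 2 to 0.55 without Vector 1) and SLC39A6 (0.044 with the replicate block, and -0.59 without Vector 3 to 0.19 without Vector 1). The cause was not tested. The replicate numbers did not pair the libraries: deviations of same-numbered libraries correlated at 0.15, -0.13 and -0.15 across genes. With the replicate block 5 zinc genes rose and 6 fell, MT2A was not called (adjusted p = 0.071), all genes gave 4419 higher and 3505 lower, and the summed metallothioneins fell by 1.77. The summed row was not fitted on FPKM. Depth limits the 12 genes under edgeR's filter, of which 5 had 0 counts in every library, 7 were tested without the filter and 5 by DESeq2.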
